A study of Homo sapiens with 6 samples.

Results

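The HOX cluster genes are the protein-coding homeobox genes of the HOXA, HOXB, HOXC and HOXD clusters. Every row of the gene count table whose Ensembl identifier maps to such a symbol was taken, and antisense genes were left out. This gave 39 genes among the 64252 rows, of which 11 belong to HOXA, 10 to HOXB, 9 to HOXC and 9 to HOXD. The cells are SK-N-BE(2), profiled in bulk by RNA sequencing, an established human neuroblastoma line with amplified MYCN. The 6 libraries form 3 groups of 2: BCAT1 hairpin 1 (shBCAT1#1), BCAT1 hairpin 2 (shBCAT1#2) and a control hairpin (shControl). BCAT1 is the cytosolic enzyme that moves the amino group of branched-chain amino acids, and the series title is about its part in keeping N-Myc protein stable. All groups are the same cell line and all carry a hairpin, and no library without a hairpin was analysed here. The labels do not say whether the replicates were separate cultures, so the spread behind each p-value is that of these libraries and may be technical.

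HOX proteins are transcription factors that bind DNA through a homeodomain, often together with PBX and MEIS cofactors. The genes lie side by side in each cluster, numbered by paralog group, and low numbers are used towards the head and high numbers towards the tail of the embryo. Polycomb proteins keep unused parts of a cluster silent and trithorax proteins keep used parts active. A cell of the trunk therefore usually keeps an on and off pattern of HOX genes that records its position, and neuroblastoma derives from trunk neural crest.

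Total counts ran from 32333416 to 39321388 per library, and 3 counts, used as the detection floor, correspond to 0.0743 to 0.0924 CPM (counts divided by the TMM-scaled library total). BCAT1 stood at 55.5 ± 0.312 CPM with hairpin 1, 113 ± 3.12 CPM with hairpin 2 and 467 ± 11.8 CPM in control cells (SD, n = 2 each), lower in all hairpin libraries than in both controls. MYCN stood at 1824 ± 5.06 CPM with hairpin 1, 1758 ± 80.3 CPM with hairpin 2 and 2260 ± 13.7 CPM in control cells. Of 14 adrenergic neuroblastoma markers, 13 averaged at least 1 CPM, and HAND2, a defining one, ran from 325 to 397 CPM. Their sum, which includes MYCN, was 4343 CPM with hairpin 1, 3576 CPM with hairpin 2 and 4682 CPM in control cells. Of 9 markers of a mesenchymal neuroblastoma state, 8 averaged at least 1 CPM. The 9 summed to 7226 CPM with hairpin 1, 5423 CPM with hairpin 2 and 7040 CPM in control cells. Most of this was VIM, at 5910 CPM with hairpin 1, 4298 CPM with hairpin 2 and 5627 CPM in control cells. The 6 haematopoietic markers summed to 31.5 CPM with hairpin 1, 16.2 CPM with hairpin 2 and 36.2 CPM in control cells. Nearly all of this was CD68, at 14.1 to 37.3 CPM, while PTPRC had at most 31 counts in a library and CD3E and HBB were at 0 in every library. Fibroblast markers summed to 831 CPM with hairpin 1, 950 CPM with hairpin 2 and 1271 CPM in control cells, and what part cell state or composition has in the results below was not tested. In bulk samples, fewer cells of a type and less RNA per cell cannot be told apart.

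SK-N-BE(2) cells used HOXC and HOXD and left HOXA and HOXB nearly silent. HOXC held 81.2% and 80.9% of all HOX counts with hairpin 1, 78.6% and 79.3% with hairpin 2, and 79.6% and 80.9% in control cells. HOXD held 16.3% and 17.3% with hairpin 1, 19.9% and 19.9% with hairpin 2, and 19.8% and 18.2% in control cells. No library gave HOXA more than 1.40% or HOXB more than 1.09% of HOX counts. The highest count of any single gene in any library was 1290 for HOXC and 499 for HOXD, but 52 for HOXA and 49 for HOXB.

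Of the 39 genes, 17 had enough counts to be tested: 3 of HOXA, 1 of HOXB, 6 of HOXC and 7 of HOXD. The other 22 never exceeded 10 counts in a library. They are 8 HOXA genes with at most 5 counts in a library, 9 HOXB genes with at most 9, HOXC11, HOXC12 and HOXC13 with at most 9, and HOXD12 and HOXD13 with at most 10. HOXA2, HOXB1 and HOXB5 had 0 counts in every library, which allows levels of up to 0.0743 to 0.0924 CPM. Of the tested genes, HOXA10, HOXA11 and HOXB9 passed the count filter through hairpin 1 alone and HOXD11 through the hairpin groups alone. These 4 could pass only because a hairpin group was high, so their counts add no support to a direction. The other 13 passed in every group.

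**Figure D1:**
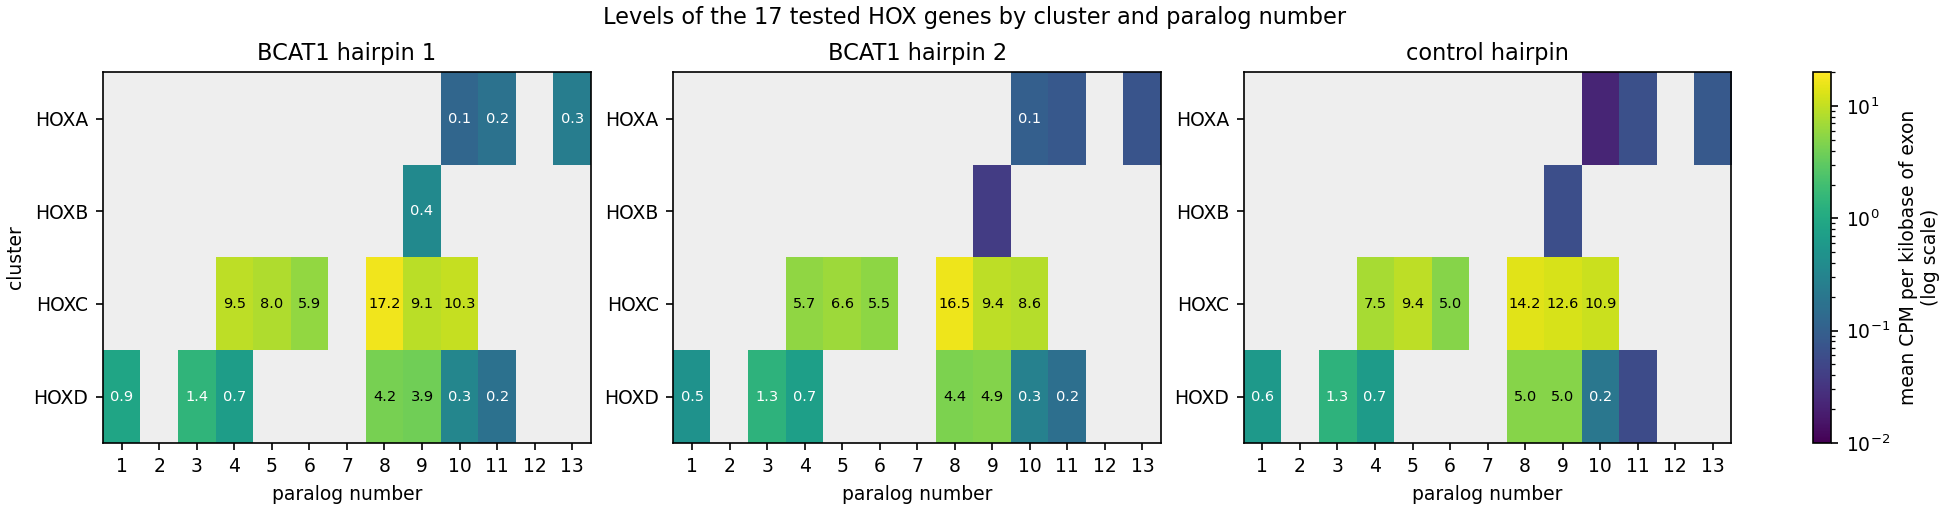
Mean level of the 17 tested HOX genes in CPM per kilobase of exon (colour, log scale) by cluster (rows) and paralog number (columns), for BCAT1 hairpin 1, BCAT1 hairpin 2 and the control hairpin, 2 libraries each. Numbers are printed in fields of 0.1 or more, and light grey fields have no gene or too few counts to test. All groups show the same block of expressed genes, HOXC4 to HOXC10 with HOXD8 and HOXD9.

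The clusters differ in where they sit and in which genes were on. Coordinates are GENCODE 29 on hg38. HOXA lies on the minus strand of chromosome 7 and HOXB at chr17:48528526-48729178 on the minus strand. HOXC lies at chr12:53938765-54056030 on the plus strand and HOXD at chr2:176092891-176190907 on the plus strand. Levels of different genes are compared below per kilobase of exon. In control cells 6 HOXC genes, 3 HOXD genes and no HOXA or HOXB gene reached 1 CPM per kilobase.

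In HOXC the expressed genes formed 1 unbroken run. From HOXC10 to HOXC4 every gene was on, and the 3 genes on the far side, HOXC11, HOXC12 and HOXC13, were at most at 9 counts. The level of HOXC10, a posterior gene used in lumbar motor neurons of the mouse, was 249 to 693 times that of its neighbour HOXC11 over the 6 libraries. HOXC11 counts were 5 and 2 with hairpin 1, 2 and 2 with hairpin 2, and 5 and 2 in control cells, so this ratio rests on very few counts. The boundary lay between the same neighbours in every library.

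HOXD showed a graded pattern in place of a single edge. HOXD9 and HOXD8 were the high pair, HOXD3 was lower, and HOXD4 and HOXD1 were lower again. The read-through row ENSG00000278500, which shares exons with HOXD3 and HOXD4, held 83 to 153 counts in a library. HOXD4 itself held 30 to 43, so the step from HOXD3 to HOXD4 is uncertain. The level of HOXD9 was 9.75 to 27.7 times that of HOXD10 over the 6 libraries, and the level of HOXD8 was 2.79 to 3.72 times that of HOXD3. HOXD12 and HOXD13, the most posterior genes, were at most at 10 counts.

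**Figure D2:**
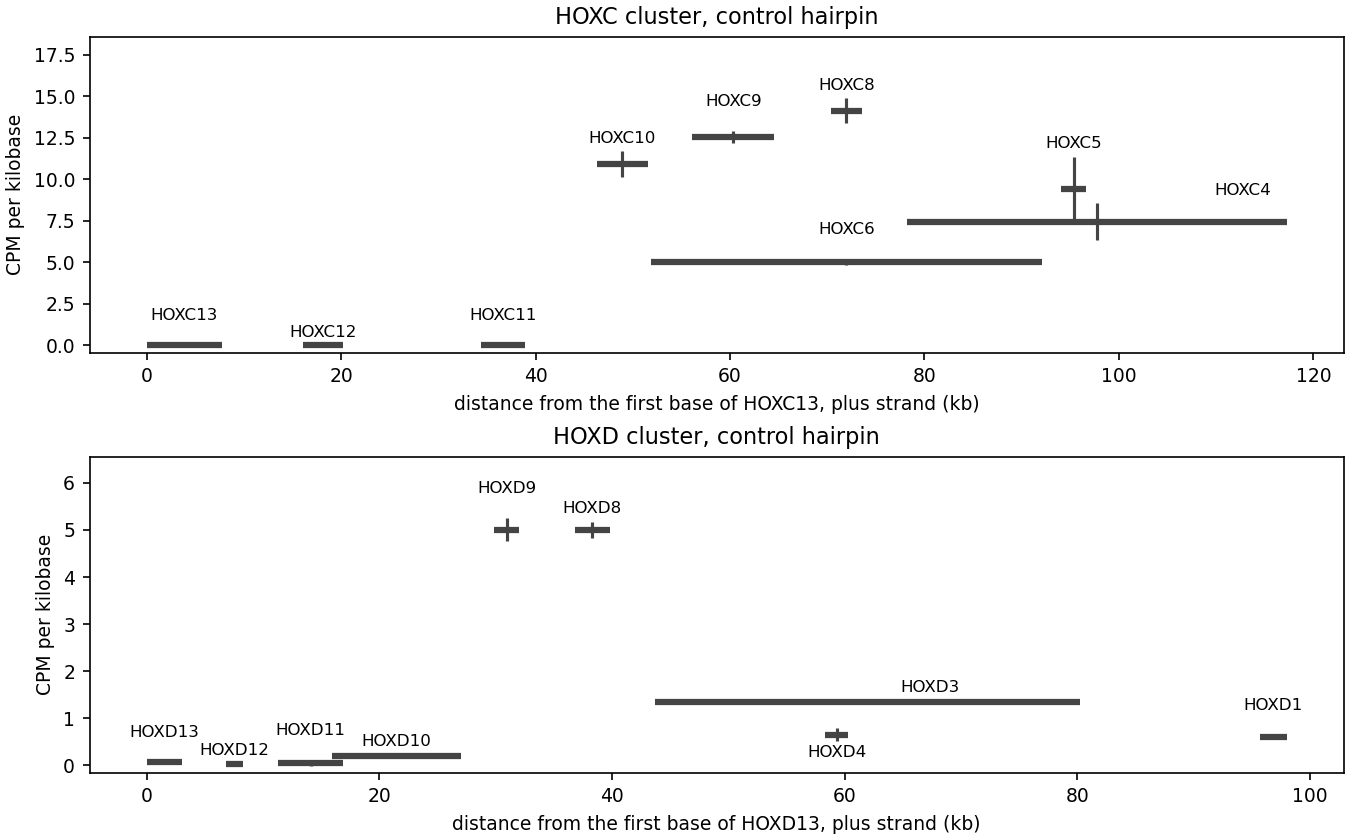
Level in control cells (mean CPM per kilobase of exon, vertical bars SD, n = 2) of each gene of HOXC (top) and HOXD (bottom) against its position, in kilobases from the first base of HOXC13 or HOXD13 along the plus strand; horizontal bars span the annotated gene. HOXC is near 0 from HOXC13 to HOXC11 and high from HOXC10 on, whereas HOXD peaks at HOXD9 and HOXD8 and falls off on both sides.

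Ordered by level in control cells, the expressed genes ran HOXC8, HOXC9, HOXC10, HOXC5, HOXC4, HOXC6, HOXD9, HOXD8, HOXD3, HOXD4, HOXD1 and HOXD10. HOXC8, which patterns thoracic segments in the mouse, was the most abundant HOX transcript in each of the 6 libraries. Its level was 15.9 and 18.4 CPM per kilobase with hairpin 1, 15.5 and 17.5 with hairpin 2, and 13.6 and 14.7 in control cells. The control libraries of neighbours in this order overlapped for HOXC10 and HOXC5, HOXC5 and HOXC4, HOXC6 and HOXD9, HOXD9 and HOXD8, and HOXD4 and HOXD1, so the order within those pairs is not resolved. The order of HOXD3 and HOXD4 is uncertain too, because reads of their shared exons may fall in the read-through row. With the longest transcript as gene length, 9 genes again reached 1 CPM per kilobase, but the order changed. HOXC4 then stood above HOXC5, and HOXD8, at 6.86 CPM per kilobase in control cells, stood above HOXC6, at 6.02, and above HOXD9.

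**Figure D3:**
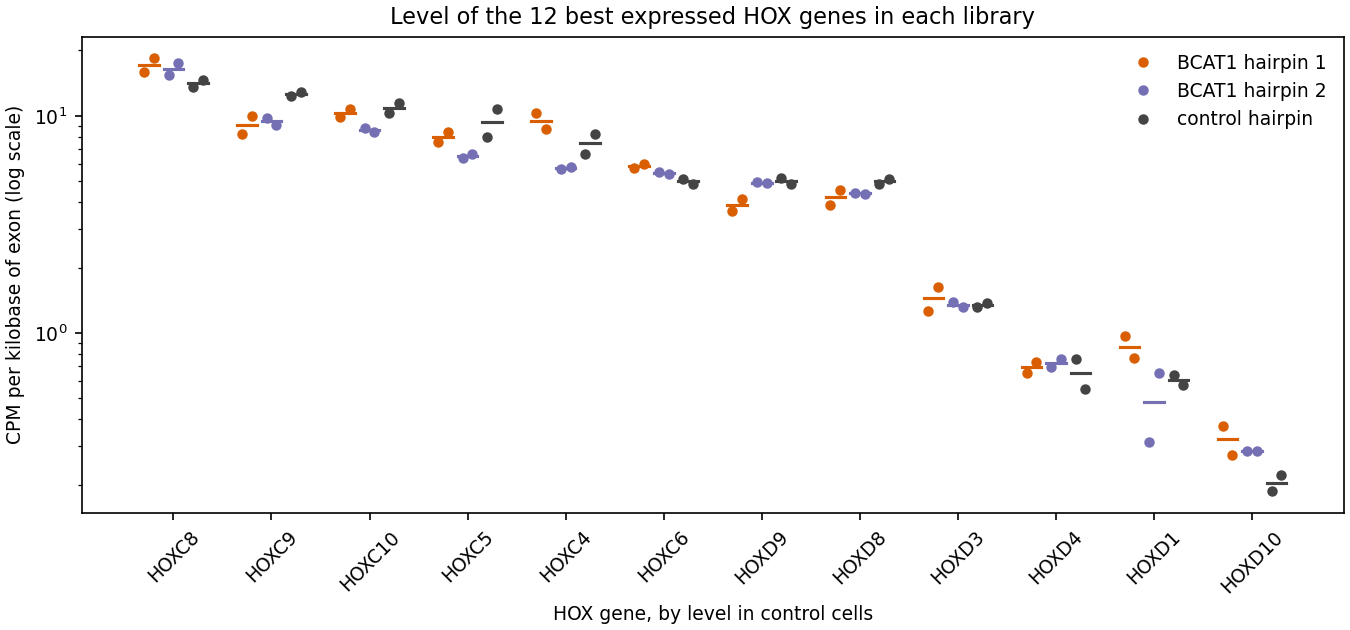
Level of the 12 best expressed HOX genes in CPM per kilobase of exon (log scale), with a point for each library and a line for the mean of 2, for BCAT1 hairpin 1 (left), BCAT1 hairpin 2 (middle) and the control hairpin (right). HOXC8 leads in every group. After the step from HOXC8 to HOXC9, the step from HOXD8 to HOXD3 is the next at which libraries do not overlap.

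The promoter table from RefSeq (GRCh38.p14, 250 bases before to 50 after each start) held 20 of the 39 genes in 27 entries, 26 of them distinct windows. Of these, 16 are of HOXA, several of them of HOXA3, 8 of HOXD, 1 of HOXC and 1 of HOXB. None was held for HOXC6, HOXC8, HOXC9, HOXC10 or HOXD9, so most of the highest expressed genes are not covered. HOXC4 and HOXC5 are listed with the same window. The HOXC4 row counted here starts at 54016931, inside it, but the HOXC5 row starts at 54032853, outside it. Whether this window serves the counted HOXC5 transcripts was not tested. The hexamer CACGTG, the E-box that N-Myc and its partner MAX bind, was searched on both strands. It was found in 9 of the 26 windows (34.6%), against 7.23% of all 34943 promoters in the table. The motif TGATTNAT, of the kind bound by PBX with a HOX protein, was found in 2 of the 26 windows (7.69%), against 2.82% of all promoters. A match is a description of the letters, not a bound site, and the shares were not adjusted for CpG content, given below. CACGTG occurred in windows of silent and of expressed genes, which the following examples show. The windows of HOXC4 (listed for HOXC5 too) and HOXD8, both expressed, hold no match. HOXD3 was expressed at a lower level and holds 1, and HOXA9 was near 0 counts and holds 1. The counted rows of HOXD3 and HOXA9 start outside these windows, at 176136612 and, on the minus strand, at 27175180. The windows lie within the rows, and whether they serve the counted transcripts was not tested. The windows are written 5′ to 3′ on the strand of the gene, with the match in capitals.

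HOXC4 and HOXC5 (chr12:54016638-54016937, plus): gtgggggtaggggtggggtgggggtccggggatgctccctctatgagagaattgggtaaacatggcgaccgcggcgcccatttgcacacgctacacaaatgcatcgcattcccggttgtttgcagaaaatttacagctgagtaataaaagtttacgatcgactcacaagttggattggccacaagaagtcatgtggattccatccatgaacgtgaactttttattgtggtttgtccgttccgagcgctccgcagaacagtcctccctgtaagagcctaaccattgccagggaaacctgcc

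HOXD8 (chr2:176129455-176129754, plus): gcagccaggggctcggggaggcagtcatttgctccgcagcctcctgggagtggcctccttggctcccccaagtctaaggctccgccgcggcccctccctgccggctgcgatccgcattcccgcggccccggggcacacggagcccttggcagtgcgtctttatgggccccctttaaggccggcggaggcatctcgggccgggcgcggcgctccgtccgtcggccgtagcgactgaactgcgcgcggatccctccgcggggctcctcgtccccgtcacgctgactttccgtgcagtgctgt

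HOXD3 (chr2:176157057-176157356, plus): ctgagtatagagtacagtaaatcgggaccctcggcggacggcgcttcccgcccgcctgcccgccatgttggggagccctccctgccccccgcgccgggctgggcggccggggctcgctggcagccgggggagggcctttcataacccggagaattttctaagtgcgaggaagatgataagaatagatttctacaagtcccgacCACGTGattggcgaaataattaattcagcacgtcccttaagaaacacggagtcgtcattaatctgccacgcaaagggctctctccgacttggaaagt

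HOXA9 (chr7:27165488-27165787, minus): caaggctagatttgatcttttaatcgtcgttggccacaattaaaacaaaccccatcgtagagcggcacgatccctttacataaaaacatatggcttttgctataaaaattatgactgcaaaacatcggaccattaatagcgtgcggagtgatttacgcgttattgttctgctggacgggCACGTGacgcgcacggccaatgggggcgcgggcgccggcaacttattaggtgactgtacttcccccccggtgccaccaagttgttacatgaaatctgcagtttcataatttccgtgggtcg

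The median ratio of observed to expected CpG dinucleotides was 0.855 over the HOX windows and 0.577 over all promoters of the table. HOXA windows, of a silent cluster, had a median of 0.814, and HOXD windows had 0.869.

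The main comparison set both BCAT1 hairpins against the control hairpin, and in it HOX genes were called in both directions. HOXC9, HOXC5 and HOXC10 were lower and HOXC8 and HOXA10 were higher at an edgeR adjusted p under 0.05, which makes 5 of the 17 tested genes, or 29.4%, against 50.0% of all genes tested. Higher calls were 2 of 17, against a background of 23.6%, and lower calls were 3 of 17, against 26.4%. The median log2 fold change of the tested HOX genes was 0.11, and that of all genes was −0.01. Among the 13 genes that passed the filter in every group, 1 was higher and 3 were lower. These calls depended on the correction for base composition. After a per-library correction for GC content and gene length, 4 genes were higher (HOXA10, HOXC6, HOXC8 and HOXD11) and 0 lower. Of these, HOXA10 and HOXD11 passed the count filter only through hairpin groups, so their calls add no support to a direction. In the corrected fit a larger share of all genes than of HOX genes was called. How that share splits into higher and lower is not given here, so whether the direction is particular to HOX genes was not tested. Median GC content was 55.3% over the tested HOX genes and 48.7% over 17459 tested genes with a value.

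HOXC9, a thoracic gene whose product promotes differentiation of neuroblastoma cells, fell with both hairpins (ENSG00000180806, chromosome 12). It stood at 13.8 and 16.7 CPM with hairpin 1, at 16.5 and 15.2 CPM with hairpin 2, and at 20.7 and 21.5 CPM in control cells. All 4 hairpin libraries lay below both control libraries. Over both hairpins the log2 fold change was −0.44 (SE 0.09, edgeR adjusted p = 0.00398), a fall of 1.36-fold, and this call held with each library left out in turn. After the GC and length correction it was −0.20 (adjusted p = 0.070), so the call was lost. Exons of HOXC9 overlap 163 bases of the antisense gene HOXC-AS2, and whether counting used strand is not given in the sources used here.

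HOXC10 changed less (ENSG00000180818, chromosome 12). Levels were 22.9 and 25.0 CPM with hairpin 1, 20.4 and 19.5 CPM with hairpin 2, and 24.1 and 26.7 CPM in control cells. The hairpin 1 libraries overlapped the control libraries, and the hairpin 2 libraries lay below them. The change over both hairpins was −0.22 (SE 0.07, edgeR adjusted p = 0.0393). It was −0.05 after the GC and length correction (adjusted p = 0.57), and the call was also lost without replicate 1 of hairpin 1, either replicate of hairpin 2, or replicate 2 of the control, with values of −0.24 to −0.14.

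HOXC5, a cervical gene of the anterior part of the cluster, was called lower over both hairpins (ENSG00000172789, chromosome 12). It stood at 13.6 and 15.2 CPM with hairpin 1, at 11.6 and 12.1 CPM with hairpin 2, and at 14.5 and 19.5 CPM in control cells. The control libraries differed more from each other than either hairpin pair did. Over both hairpins the change was −0.38 (SE 0.12, edgeR adjusted p = 0.0289), and without replicate 2 of the control, the highest library, it was −0.15 (adjusted p = 0.326). The call was also lost without replicate 1 of hairpin 1 or either replicate of hairpin 2, and after the GC and length correction, where the change was −0.13 (adjusted p = 0.43).

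HOXC5 also shares exons with another row of the table. The row ENSG00000273049 is an annotated read-through transcript that shares 611 exon bases with HOXC5 and 166 with HOXC10. It held 138 and 2 counts with hairpin 1, 79 and 122 with hairpin 2, and 124 and 3 in control cells. Replicate 2 of hairpin 1 and replicate 2 of the control thus had almost no counts in this row, and the other 4 libraries had 79 to 138. HOXC5 alone had 528 and 493 counts with hairpin 1, 468 and 471 with hairpin 2, and 548 and 722 in control cells. With the row added, the sums were 666 and 495 counts with hairpin 1, 547 and 593 with hairpin 2, and 672 and 725 in control cells, so the control replicates came closer together and the hairpin 1 replicates moved apart. With such rows added to their HOX gene, an alternative chosen after seeing the data, the change of HOXC5 over both hairpins was −0.28 (edgeR adjusted p = 0.0375).

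**Figure D4:**
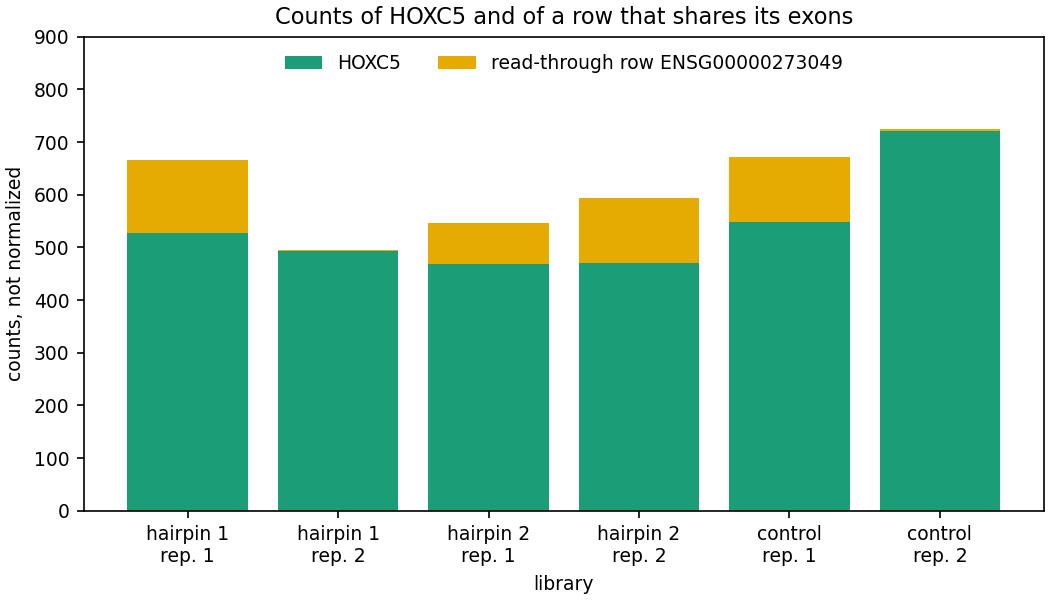
Counts (not normalized, bars from 0) of HOXC5 and, stacked on top, of the read-through row ENSG00000273049 that shares its exons, in each of the 6 libraries. The read-through row holds 2 and 3 counts in replicate 2 of hairpin 1 and of the control, and 79 to 138 counts in the other 4 libraries.

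HOXC8 moved the other way (ENSG00000037965, chromosome 12). It stood at 30.1 and 34.7 CPM with hairpin 1, at 29.3 and 33.1 CPM with hairpin 2, and at 25.8 and 27.7 CPM in control cells. All hairpin libraries lay above both control libraries. The rise over both hairpins was 0.25 (SE 0.08, edgeR adjusted p = 0.0358). It held after the GC and length correction, but not without replicate 2 of either hairpin or without either control replicate, where values were 0.19 to 0.30.

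HOXA10, a posterior gene of the silent HOXA cluster known for its role in the uterus, was higher with the hairpins at very few counts (ENSG00000253293, chromosome 7). It had 10 and 21 counts with hairpin 1, 23 and 7 with hairpin 2, and 2 and 4 in control cells. The hairpin libraries did not overlap the control libraries, but the replicates of each group differed widely. Because HOXA10 passed the count filter through hairpin 1 alone, neither this nor its call adds support to a direction. The fitted change over both hairpins was 2.30 (SE 0.77, edgeR adjusted p = 0.0360), and it missed the threshold without replicate 2 of hairpin 1, replicate 1 of hairpin 2 or either control replicate (1.77 to 2.87), and in DESeq2 (adjusted p = 0.058) and limma-voom (0.062).

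Of the other HOXC genes, HOXC6 and HOXC4 were not called over both hairpins. HOXC6 levels were 20.3 and 21.2 CPM with hairpin 1, 19.5 and 19.1 CPM with hairpin 2, and 18.2 and 17.2 CPM in control cells. The hairpin libraries were above the control libraries in each case, with a change of 0.17 (SE 0.07, edgeR adjusted p = 0.0673), and after the GC and length correction it passed at 0.25 (adjusted p = 0.0081). HOXC4 changed by −0.01 (SE 0.10, edgeR adjusted p = 0.936) over both hairpins, which hides opposite values with each hairpin, given below. HOXC4 and HOXC6 share 484 exon bases, so reads there are uncertain between them.

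No HOXD gene passed over both hairpins. HOXD8, which responds to retinoic acid in neuroblastoma cells, stood at 10.2 and 11.9 CPM with hairpin 1, at 11.6 and 11.5 CPM with hairpin 2, and at 12.8 and 13.5 CPM in control cells. All hairpin libraries were lower, with a change of −0.22 (SE 0.09, edgeR adjusted p = 0.0834), which was 0.05 after the GC and length correction. HOXD9 changed by −0.19 (SE 0.10, edgeR adjusted p = 0.133). HOXD3, an anterior gene of the neck vertebrae in the mouse, held 4.48 and 5.79 CPM with hairpin 1, 4.90 and 4.67 CPM with hairpin 2, and 4.68 and 4.89 CPM in control cells, and its groups overlapped. HOXD4 held 0.954 and 1.08 CPM with hairpin 1, 1.01 and 1.10 CPM with hairpin 2, and 1.11 and 0.810 CPM in control cells. The read-through row ENSG00000278500 covers 80.5% of the HOXD4 exon bases and 62.2% of those of HOXD3, so reads of the shared exons are uncertain between these rows.

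HOXD1, active in nociceptive neurons of the mouse, held 1.91 and 1.51 CPM with hairpin 1, 0.619 and 1.28 CPM with hairpin 2, and 1.27 and 1.13 CPM in control cells. Its hairpin 1 libraries were above the control libraries and its hairpin 2 libraries straddled them, and no comparison called it. HOXD10 held 1.00 and 0.739 CPM with hairpin 1, 0.767 and 0.770 CPM with hairpin 2, and 0.502 and 0.594 CPM in control cells. All its hairpin libraries were higher, with a change of 0.58 (SE 0.28, edgeR adjusted p = 0.124). This rests on 39 and 24 counts with hairpin 1, 31 and 30 with hairpin 2, and 19 and 22 in control cells. HOXD10 and HOXD11 share 452 exon bases, so reads there are uncertain between them. HOXD11 had 11 and 14 counts with hairpin 1, 17 and 10 with hairpin 2, and 1 and 8 in control cells, with a change of 1.499 (SE 0.69, edgeR adjusted p = 0.107). Without replicate 1 of the control, the library with 1 count, the change of HOXD11 was 0.67 (adjusted p = 0.479), and without replicate 2 of the control it was 3.55 (adjusted p = 0.0284). HOXA11 had 16 and 13 counts with hairpin 1, 13 and 2 with hairpin 2, and 4 and 7 in control cells, with a change of 0.90 (SE 0.70, edgeR adjusted p = 0.321). The exons of HOXA11 overlap those of HOXA11-AS over 717 bases, so strand matters here as well.

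Summed over its genes, each cluster kept its rank in every group. HOXC summed to 133 ± 5.74 CPM with hairpin 1, 114 ± 1.41 CPM with hairpin 2 and 128 ± 9.65 CPM in control cells (SD, n = 2 each). HOXD summed to 27.6 ± 2.46 CPM with hairpin 1, 28.7 ± 0.135 CPM with hairpin 2 and 30.3 ± 0.1 CPM in control cells. HOXA summed to 2.25 ± 0.0442 CPM with hairpin 1, 1.14 ± 0.488 CPM with hairpin 2 and 0.75 ± 0.276 CPM in control cells. HOXB summed to 1.26 ± 0.655 CPM with hairpin 1, 0.552 ± 0.164 CPM with hairpin 2 and 0.481 ± 0.0829 CPM in control cells. On the log2 scale, both hairpins over control gave −0.06 for HOXC, −0.11 for HOXD, 1.18 for HOXA and 0.92 for HOXB; for HOXC and HOXD the sign turned after the GC and length correction (0.09 and 0.17). With 1 library left out, the value for HOXA ran from 0.84 to 1.61 and that for HOXB from 0.40 to 1.15, lowest without replicate 1 of hairpin 1 for HOXB. These sums are descriptions with no test.

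With hairpin 1 alone, more HOX genes passed than with both hairpins together. Against control, 6 of 17 were higher and 2 lower, or 47.1% in all, against 49.1% of all genes tested (24.2% higher and 24.9% lower). HOXC4, HOXC6, HOXC8, HOXB9, HOXA13 and HOXA10 were higher, and HOXC9 and HOXD9 were lower. Among the 13 genes that passed the filter in every group, 4 were higher and 2 lower. After the GC and length correction, 6 of the 17 were higher and 0 lower, a count not restricted to those 13 genes. A larger share of all genes than of HOX genes was called in that fit too. Its split by direction is not given here, so these counts do not show a rise particular to HOX genes.

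HOXB9, the thoracic gene at the posterior end of the main HOXB block, was the only HOXB gene with enough counts to test (ENSG00000170689, chromosome 17, 48621159 to 48626356, minus strand). It had 49 and 20 counts with hairpin 1, 6 and 2 with hairpin 2, and 6 and 6 in control cells. Both hairpin 1 libraries were above all others, and they differed from each other. HOXB9 entered the test only because its hairpin 1 libraries passed the count filter, so its p-values in comparisons with hairpin 1 are favoured by that choice. The fitted change with hairpin 1 was 2.54 (SE 0.57, edgeR adjusted p = 0.00573), and without replicate 1 of hairpin 1 it was 1.92 (adjusted p = 0.080). With hairpin 2 it was −0.65 (SE 0.75, edgeR adjusted p = 0.503).

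HOXA13, which shapes the distal limb and the hindgut, also stood out with hairpin 1 (ENSG00000106031, chromosome 7). It had 52 and 40 counts with hairpin 1, 19 and 10 with hairpin 2, and 15 and 17 in control cells. The hairpin 1 libraries lay above all other libraries, while hairpin 2 and control overlapped. The rise with hairpin 1 was 1.58 (SE 0.36, edgeR adjusted p = 0.00633) and held with each library left out in turn. With hairpin 2 the change was −0.23 (SE 0.40, edgeR adjusted p = 0.669).

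In HOXC, hairpin 1 gave 0.35 for HOXC4 (SE 0.12, edgeR adjusted p = 0.0394), 0.23 for HOXC6 (SE 0.08, 0.0444) and 0.28 for HOXC8 (SE 0.10, 0.0415). Each of these calls depended on single libraries. The call of HOXC6 was lost whichever of the 6 was left out (0.19 to 0.26). That of HOXC4 was lost without replicate 1 of hairpin 1, either replicate of hairpin 2 or replicate 1 of the control (0.20 to 0.35). That of HOXC8 was lost without replicate 2 of hairpin 1 or either control replicate (0.18 to 0.33). HOXC9 fell by 0.47 (log2) with hairpin 1 (SE 0.11, edgeR adjusted p = 0.00684). HOXD9, a gene of the lumbar level and the limb in the mouse, stood at 6.80 and 7.76 CPM with hairpin 1, at 9.26 and 9.14 CPM with hairpin 2, and at 9.67 and 9.05 CPM in control cells. The hairpin 1 libraries were below all others, and the change with hairpin 1 was −0.36 (SE 0.11, edgeR adjusted p = 0.0279). After the GC and length correction it was −0.07 (adjusted p = 0.60), and the call was also lost without replicate 1 of hairpin 1 or either control replicate (−0.41 to −0.27).

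With hairpin 2 alone, the HOX genes that passed were all HOXC genes and all lower. HOXC9, HOXC4, HOXC10 and HOXC5 made 4 of 17, or 23.5%, against 49.3% of all genes tested, and lower calls had a background of 25.4%. No HOX gene was called higher, where the background was 23.9%. HOXC5 fell most, by 0.52 in log2 (SE 0.14, edgeR adjusted p = 0.0150). HOXC9 fell by 0.41 (SE 0.11, adjusted p = 0.0123), HOXC4 by 0.38 (SE 0.12, adjusted p = 0.0319) and HOXC10 by 0.35 (SE 0.09, adjusted p = 0.00984). After the GC and length correction, 0 genes were lower and 4 higher (HOXA10, HOXC6, HOXC8 and HOXD9). Of these, HOXA10 passed the count filter through hairpin 1 alone, so its call adds no support to a direction. Over all genes, the corrected fit again called a larger share than among HOX genes, and the split of that share by direction is not given here. Each of the 4 falls also missed the threshold without replicate 2 of hairpin 2 or without replicate 2 of the control, and those of HOXC4 and HOXC5 without replicate 1 of hairpin 2 too (adjusted p = 0.054 to 0.199 over these fits).

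**Figure D5:**
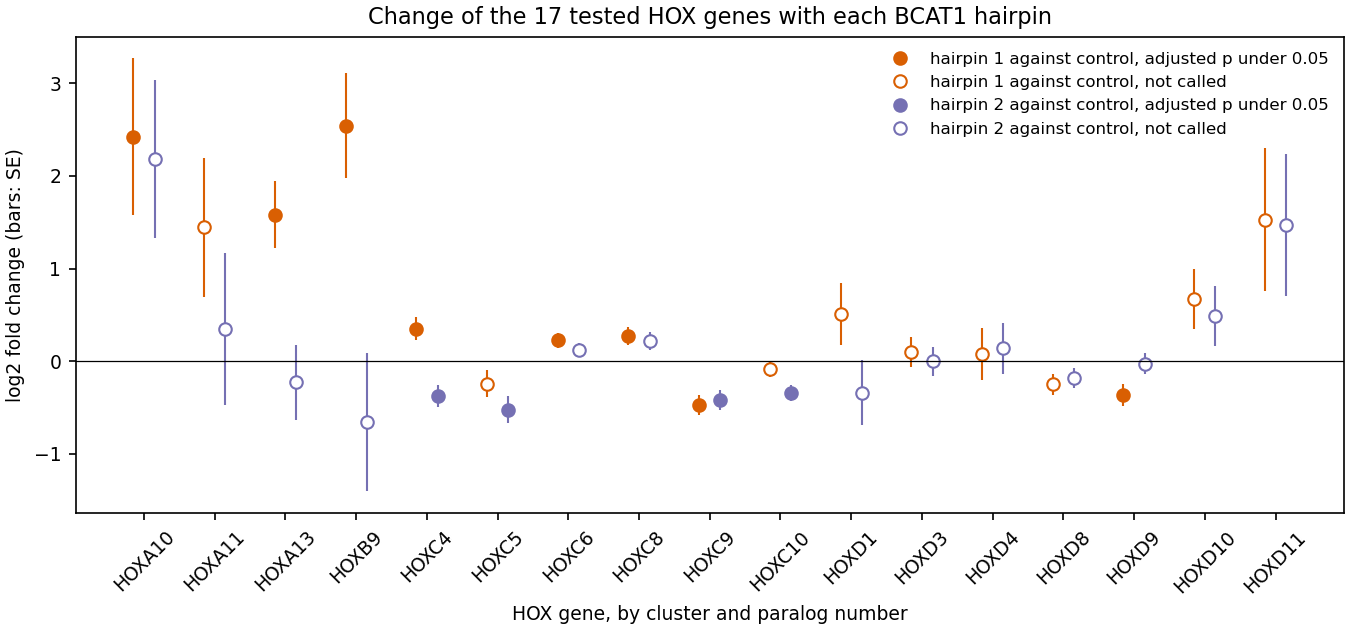
Log2 fold change against control of the 17 tested HOX genes with hairpin 1 (left point of each pair) and hairpin 2 (right point), with SE as bars; filled points had an edgeR adjusted p under 0.05. HOXA, HOXB and HOXD11, at few counts, carry the large changes and wide errors, and HOXC genes run from −0.52 to 0.35.

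The hairpins shared a control group, so their agreement is not evidence of its own, but they can be set against each other directly. Hairpin 2 against hairpin 1 called 5 of 17 HOX genes, 1 higher and 4 lower, or 29.4%, against 46.2% of all genes tested (22.9% higher and 23.3% lower). Among the 13 genes that passed the filter in every group, 1 was higher and 3 were lower. HOXC4, a cervical gene, showed the difference with the smallest p. It stood at 15.5 and 15.8 CPM with hairpin 2 and at 28.1 and 23.8 CPM with hairpin 1, with 18.2 and 22.5 CPM in control cells. The hairpin groups lay on opposite sides of the control libraries, and the difference was −0.73 (SE 0.12, edgeR adjusted p = 0.00136), a call that held with each library left out in turn. HOXA13 differed by −1.81 (SE 0.36, edgeR adjusted p = 0.00372). HOXB9 gave −3.19 (SE 0.60, edgeR adjusted p = 0.00262), but it was tested only because hairpin 1 was high, so this value adds no support to the direction. HOXC10 differed by −0.26 (SE 0.09, adjusted p = 0.0360) and HOXD9 by 0.34 (SE 0.11, adjusted p = 0.0387). The call of HOXC10 was lost without replicate 2 of hairpin 1 or either replicate of hairpin 2 (−0.30 to −0.20). That of HOXD9 was lost without replicate 1 of hairpin 1, either replicate of hairpin 2 or replicate 2 of the control (0.24 to 0.35). After the GC and length correction the counts were again 1 higher and 4 lower. HOXC5, listed with the same promoter window as HOXC4, differed by −0.28 (SE 0.14, edgeR adjusted p = 0.144), but its counted row starts outside that window.

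The BCAT1 transcript itself differed between the hairpins, by 1.03 in log2 (SE 0.043, hairpin 2 against hairpin 1, edgeR adjusted p = 7.3e-07), so hairpin 2 left more of it.

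Genes that work with the HOX clusters were taken as lists, described by their counts over both hairpins. Over all genes tested, 23.6% were higher and 26.4% lower in this comparison, 50.0% in all, and each count below is to be read beside these shares. Of the 9 TALE-class cofactors, 1 was higher and 2 lower, and after the GC and length correction 0 were higher and 4 lower. PBX3, which binds DNA together with HOX proteins, changed by −0.13 (SE 0.04, edgeR adjusted p = 0.0154), and MEIS3 by −0.25 (SE 0.08, edgeR adjusted p = 0.0381), which was 0.03 after the correction.

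Of 34 tested Polycomb genes, 10 were higher and 10 lower, with a median log2 fold change of 0.00, where 23.6% of all genes tested were higher and 26.4% lower. After the GC and length correction, 8 were higher and 12 lower. JARID2, which brings the PRC2 complex to its targets, rose by 0.69 (SE 0.06, edgeR adjusted p = 4.4e-05) and ASXL2 by 0.74 (SE 0.04, 4.5e-06), while PHF19, a PRC2 subunit, fell by 0.55 (SE 0.04, 1.6e-05). PHF19 stood at 107 ± 2.35 CPM with hairpin 1, 61.4 ± 0.0203 CPM with hairpin 2 and 118 ± 6.69 CPM in control cells. Of 23 trithorax and MLL genes, 18 were higher and 3 lower, where 23.6% of all genes tested were higher and 26.4% lower. Their median log2 fold change was 0.45, against −0.01 over all genes. How many of them were higher or lower after the GC and length correction is not given here. KMT2C, an H3K4 methyltransferase, stood at 134 ± 2.07 CPM with hairpin 1, 100.3 ± 1.07 CPM with hairpin 2 and 60.4 ± 1.73 CPM in control cells, a rise of 0.94 (SE 0.04, edgeR adjusted p = 1.5e-06) that was 0.47 after the GC and length correction. KMT2E rose by 0.93 (SE 0.04, edgeR adjusted p = 2.5e-06) and KMT2D by 0.85 (SE 0.04, edgeR adjusted p = 2.9e-06), both still called after that correction.

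Retinoic acid is a classical activator of HOX genes, and of 14 tested genes of its pathway 5 were higher and 5 lower, where 50.0% of all genes tested were called. STRA6, the retinol uptake receptor, stood at 386 ± 11.6 CPM with hairpin 1, 333 ± 14.5 CPM with hairpin 2 and 566 ± 9.89 CPM in control cells, a fall of 0.66 in log2 (SE 0.04, edgeR adjusted p = 4.9e-06). NRIP1, a corepressor of nuclear receptors, rose by 0.93 (SE 0.08, edgeR adjusted p = 3.0e-05). Of 12 other Antennapedia-type homeobox genes, 4 could be tested and 0 were called over both hairpins in edgeR, with limma-voom calling 1. This 0 does not mean that levels were unchanged. Against control, 1 of the 4 was lower with hairpin 1, where 49.1% of all genes tested were called. With hairpin 2, 2 of the 4 were higher, where the share called was 49.3%.

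Of 10 tested neighbours of the clusters, 3 were higher and 2 lower, a share equal to the 50.0% called over all genes tested. After the GC and length correction 1 was higher and 3 were lower. LNPK, next to HOXD, changed by 0.29 (SE 0.05, edgeR adjusted p = 0.00115), but by −0.13 after the GC and length correction. ATP5MC2, a subunit of ATP synthase near HOXC, fell by 0.37 (SE 0.03, edgeR adjusted p = 3.2e-05). SMUG1, a DNA repair glycosylase near HOXC, fell by 0.23 (SE 0.05, edgeR adjusted p = 0.00528), a call lost after the correction (−0.09). Of 5 tested noncoding genes within the clusters, 1 was lower: HOXD-AS2 stood at 6.12 ± 0.967 CPM with hairpin 1, 5.31 ± 0.0592 CPM with hairpin 2 and 8.02 ± 1.45 CPM in control cells, a change of −0.49 (SE 0.14, edgeR adjusted p = 0.0180). That call was lost without replicate 1 of the control (−0.30) and after the correction (−0.12).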

How the data were processed

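The authors deposited 1 table of raw, whole-number counts with a row for each Ensembl gene. The submitters' processing notes name HISAT2 2.2.0, StringTie and hg38; which annotation release and strand setting they used is not given in the sources used here. Symbols came from a name table that held 56105 of 64252 rows, coordinates and exon lengths from GENCODE 29.

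In R 4.3.3, edgeR 4.0.16 fitted a quasi-likelihood model by group to all 6 libraries, with TMM scaling (factors 0.96 to 1.035) and filterByExpr (minimum count 10), over 18734 genes with 3 residual degrees of freedom. All p-values are two-sided, adjusted by Benjamini-Hochberg over every gene tested, at a threshold of 0.05; SE was derived from log2 fold change and F. CPM are counts over TMM-scaled totals. Scripts were tested on simulated data. Replicates of a group were not copies of each other (mean chi-square per gene of 6.42 for hairpin 1, 5.73 for hairpin 2 and 8.23 for control, where sampling noise gives about 1). Floors cover counting error only.

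The HOX genes and the other lists were chosen with earlier results of these data known. HOX genes are counted in full, and for tested ones levels, changes or counts are given; of other lists, up to 3 called members, by smallest p in the main comparison, were to be named, with BCAT1 and MYCN, and some items are not reported here. Alternatives were RLE scaling, no filter, limma-voom (limma 3.58.1), DESeq2 1.42.0, a CPM of at least 1, fits restricted to the groups compared, a replicate block, leaving out each library, a fold threshold of 1.5, a per-library GC and length correction (mgcv 1.9.3), and added read-through rows. The GC correction left out 1275 genes with no GC or length value.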

Additional observations from a re-analysis of the deposited data

Results flagged for a closer look

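The effects of the BCAT1 hairpins on 5 HOX genes differed when hairpin 2 was tested directly against hairpin 1 in edgeR, with adjustment over all genes. On the log2 scale, hairpin 2 minus hairpin 1 was −0.73 for HOXC4, which was lower in 2 of 2 hairpin 2 libraries than in both hairpin 1 libraries, and −3.19 for HOXB9 and −1.81 for HOXA13, which rest on 2 to 52 counts per library. It was −0.26 for HOXC10 and 0.34 for HOXD9, the only gene of the 5 that was higher with hairpin 2. In HOXC10 and HOXD9 the call was lost when a single library was left out, as given above; in HOXC4 and HOXA13 it held without any single library. HOXB9 passed the count filter only through hairpin 1, where it is high, so its call adds no support to the direction. The knockdown of BCAT1 was itself deeper with hairpin 1, and its part in these differences was not tested.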

How the results depend on the processing

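HOX genes called over both hairpins numbered 5 in the main test, 3 in DESeq2, 3 with a replicate block, 3 with the GC and length correction plus replicate block, 1 with no low-count filter and 0 at a fold threshold of 1.5, and 2 to 4 with 1 library left out. For hairpin 1 they numbered 8, then 5 in DESeq2, 5 with the replicate block, 3 with no filter, 1 at the fold threshold and 4 to 6 with 1 library left out. For hairpin 2 they numbered 4, then 2 with the GC correction plus replicate block, 0 at the fold threshold and 1 to 4 with 1 library left out. For hairpin 2 against hairpin 1 they numbered 5, then 3 in DESeq2, with no filter and with the replicate block, 2 at the fold threshold and 3 to 5 with 1 library left out. RLE scaling changed no HOX call. The share of all genes called was also lower in DESeq2 and with no filter, and by far the lowest at the fold threshold. DESeq2 and the fit with no filter also tested more HOX genes than the main test did. With no filter, part of the lower share over all genes came from the larger number of genes tested. The number of all genes called was lower in these settings too, so the loss of calls was not limited to HOX genes. Whether HOX calls fell by more or by less than calls over all genes was not tested. The labels do not say whether the replicate numbers pair the libraries. Replicate differences of the groups correlated across genes at 0.00435, −0.0377 and −0.0331. These values show no strong shared replicate effect but cannot show whether libraries were handled in pairs. The block was not part of the main test and is given here alone.

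In the lists over both hairpins, the fold threshold left 0 TALE cofactors, 1 Polycomb, 5 trithorax, 1 retinoic acid gene and 0 neighbours. That threshold called far fewer of all genes too, and these counts were not tested against that share. DESeq2 gave 3 neighbours and limma-voom 1 Antennapedia-type gene. Noncoding genes in the clusters gave 0 with the GC correction, with or without the block, 0 at the fold threshold and 2 with the block. With 1 library left out, TALE calls ran from 1 to 3, neighbours from 3 to 5 and noncoding genes from 0 to 2.

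Cluster sums (log2) became 1.70 for HOXB over tested genes and 1.85 after the GC correction. Both are values of HOXB9 alone, the only tested HOXB gene. HOXB9 passed the count filter through hairpin 1 alone, where it is high, so these values add no support to a direction. The sums became 0.028 for HOXC and −0.019 for HOXD with no scaling, and 0.095 for HOXC and 0.17 for HOXD after the GC correction. HOXC ran from −0.13 to 0.022 with 1 library left out.

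Direction turned in these results, where HOXD9 with hairpin 2 and LNPK were called after the turn. The GC correction, alone and with the replicate block, gave 0.069 and 0.070 for HOXC10 with hairpin 1, 0.090 and 0.092 for HOXC4, 0.046 and 0.047 for HOXD8 and 0.12 for HOXD9 over both hairpins, 0.10 for HOXD8 and 0.32 for HOXD9 with hairpin 2, 0.030 and 0.032 for MEIS3 and −0.13 for LNPK. With the block it gave 0.00446 for HOXC5 with hairpin 1. Limma-voom gave −0.066 for HOXA11 with hairpin 2, no filter −0.00572 for HOXD3 with hairpin 2, and a CPM of at least 1 gave 0.00142 for HOXC4. With 1 library left out, HOXA11 ran from −0.011 to 1.36 over both hairpins and from −1.47 to 1.11 with hairpin 2, and HOXA13 from −0.73 to 0.14 with hairpin 2. HOXC4 ran from −0.16 to 0.15 and HOXD1 from −0.22 to 0.30 over both, and HOXD1 from −0.95 to 0.089 with hairpin 2. HOXD3 ran from −0.040 to 0.14 over both, −0.085 to 0.28 with hairpin 1 and −0.039 to 0.038 with hairpin 2. HOXD4 ran from −0.10 to 0.35 over both, −0.13 to 0.32 with hairpin 1 and −0.070 to 0.38 with hairpin 2, and HOXD9 from −0.075 to 0.021 with hairpin 2. The cause of these changes was not tested. Counts under 60 in every library limit HOXA, HOXB, HOXD4, HOXD10 and HOXD11, and counts of 25 to 74 limit HOXD1.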
